A study of Arabidopsis thaliana with 36 samples.

Results

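The trehalose-6-phosphate synthase (TPS) family of Arabidopsis thaliana was followed through 8 genes, taken by their locus identifiers from the 32833 loci of both count tables: TPS1 (AT1G78580), TPS5 (AT4G17770), TPS6 (AT1G68020), TPS7 (AT1G06410), TPS8 (AT1G70290), TPS9 (AT1G23870), TPS10 (AT1G60140) and TPS11 (AT2G18700). All 8 passed the filter on low counts in each fit. The family's other genes, TPS2, TPS3 and TPS4, reached at most 0.468 CPM in any library and were tested in no comparison. Whole seedlings were profiled by 3′ digital gene expression in 36 libraries, 12 groups of 3. The triple mutant stp1/4/13, which carries lesions in 3 hexose-proton symporter genes, the wild type Col and the flagellin receptor mutant fls2 were each given 1 µM flg22, the immunogenic peptide of bacterial flagellin, in medium with 25 mM sucrose and taken after 2, 10 and 24 h. A further 9 Col libraries, taken at 24 h, carry the titles 2DG_1mM, Suc_25mM and Suc_0mM; 2DG is 2-deoxy-d-glucose, a glucose analogue that is phosphorylated but hardly metabolised further, and the 2DG treatment was given in medium without sucrose. All flg22 groups received both the peptide and sucrose, and the labels name no seedlings left without peptide in that medium, so Col or stp1/4/13 against fls2 includes whatever the fls2 genotype changes by itself. The alleles and the positions of the mutations are not given in the sources used here, and the 3 libraries of a group come from 3 independent trials per the design text.

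Trehalose-6-phosphate (T6P) is a scarce sugar phosphate that reports sucrose status in plants. TPS1, a class I enzyme, makes it from UDP-glucose and glucose-6-phosphate; trehalose-6-phosphate phosphatases (TPPs) and the trehalase TRE1 take it on to trehalose and glucose. T6P inhibits the energy-sensing kinase SnRK1. The class II proteins TPS5 to TPS11 carry synthase-like and phosphatase-like domains without established synthase activity, and their transcripts are known sugar-response markers: TPS5 is known to be induced by sugar, TPS8 to TPS11 to be repressed by it.

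Levels are CPM, counts scaled to 1e+06 counts per library. The counts come from 3′ tags, and levels are compared between groups and not between genes. Differences are log2 fold changes ± standard error from edgeR's quasi-likelihood test (n = 3 libraries per group), with p-values adjusted by Benjamini-Hochberg over all genes of the fit and a threshold of 0.05; intervals are 2 standard errors either side. Libraries held 17.2 to 19.6 M counts at 2 h, 9.46 to 11.3 M at 10 h, 16.0 to 20.1 M at 24 h after flg22 and 8.05 to 12.9 M among the libraries without flg22. The 10 h libraries lie in another table than those of 2 h and 24 h, so levels were not tested between 10 h and the other times; only differences between genotypes, each taken within a table, were. FLS2 stood at 0.102 to 0.226 CPM in the 9 fls2 libraries, against 11.9 to 51.8 CPM in the Col flg22 libraries. The mean levels of the 3 STP genes lay below those of Col in the triple mutant at every time. For 6 libraries the titles and the treatment labels contradict each other, each giving 2DG_1mM where the other gives Suc_25mM. Groups follow the titles here, and by the treatment labels the values of those 2 groups change places. In bulk tissue, fewer cells of a type and less RNA per cell cannot be told apart.

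Against fls2, Col seedlings given flg22 had less TPS5 transcript and more TPS11 transcript at all 3 times, and more TPS8 and TPS9 at 10 and 24 h. TPS7 stayed within 0.25 log2 units of fls2. At 2 h, 1 member was higher and 2 were lower of 8, near the background of 34.8% of all genes tested (18.7% higher, 16.1% lower). At 10 h, 4 were higher and 1 was lower, against a background of 51.3% (24.9% higher, 26.4% lower). At 24 h, 3 were higher and 1 was lower, against 18.6% of all genes (11.0% higher, 7.59% lower). The median log2 difference of the 8 members was 0.43 at 2 h, 0.86 at 10 h and 0.47 at 24 h, beside -0.02, -0.07 and 0.01 for all genes tested.

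**Figure D1:**
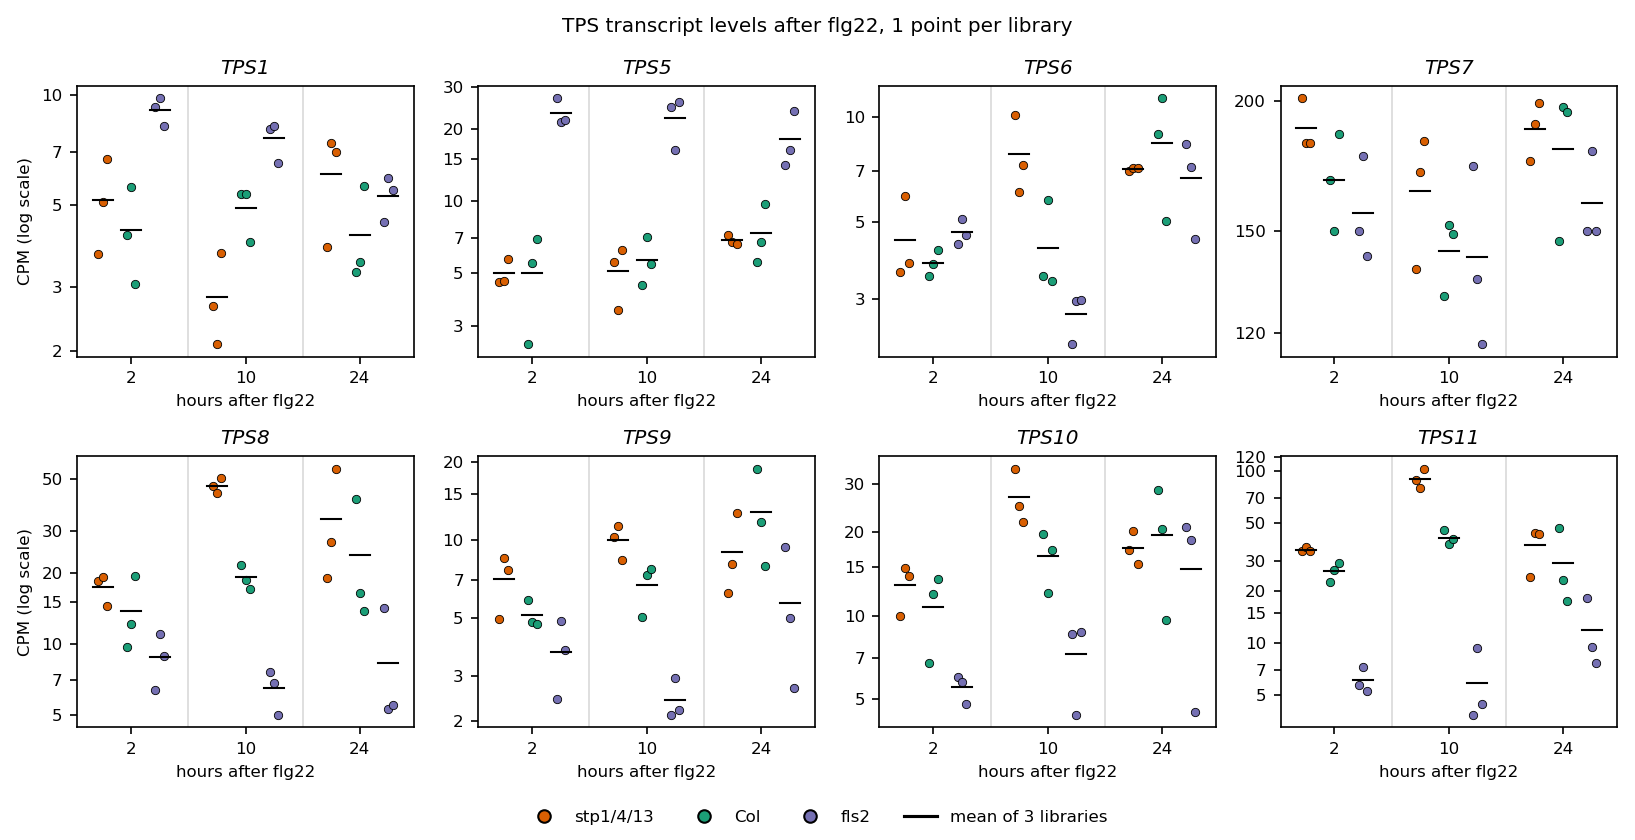
CPM on a log scale of the 8 TPS genes in the flg22 libraries, 1 panel per gene, with stp1/4/13, Col and fls2 side by side at 2, 10 and 24 h; points are libraries and bars the mean of 3. TPS5 lies lower in stp1/4/13 and Col than in fls2 at each time, TPS11 lies higher at 2 and 10 h, and TPS7 stays between 117 and 201 CPM throughout.

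TPS1, the catalytic synthase, had 3.06 to 9.79 CPM in the libraries of 2 h. At 2 h it had 4.15, 5.61 and 3.06 CPM in Col, against 9.29, 9.79 and 8.23 CPM in fls2. Every Col library lay below every fls2 library, and TPS1 fell by 0.94 ± 0.29 (edgeR adjusted p = 0.015), 1.92-fold lower in Col. The call was lost without Col library 3 (-0.76, edgeR adjusted p = 0.077) or without fls2 library 2 (-0.84, edgeR adjusted p = 0.055). At 10 h it had 5.37, 5.36 and 3.98 CPM in Col and 8.09, 8.24 and 6.53 CPM in fls2. The groups again did not overlap, but the difference missed the threshold (log2 interval -1.29 to -0.08, edgeR adjusted p = 0.069). By 24 h the Col values of 3.30, 3.50 and 5.64 CPM reached into the fls2 values of 4.50, 5.95 and 5.49 CPM (log2 interval -0.86 to 0.30, edgeR adjusted p = 0.56). The 3′ end of TPS1 is covered on the opposite strand by RHM1, a rhamnose synthase gene, over 99 bases in RefSeq's annotation. At 2 h, where TPS1 passed, RHM1 did not (-0.27 ± 0.41, edgeR adjusted p = 0.65), with 76.7 CPM in Col and 102 CPM in fls2. RHM1 was lower in Col than in fls2 at 10 h (-0.81 ± 0.18, edgeR adjusted p = 0.0011), with 46.4 CPM in Col and 78.9 CPM in fls2. Whether the counting used strand is not given in the sources used here, and the part of RHM1 reads in the TPS1 counts was not tested.

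TPS5, a class II gene known to follow sugar supply upward, was lower in Col at each time. At 2 h it had 2.52, 5.51 and 6.93 CPM in Col, against 26.9, 21.5 and 21.9 CPM in fls2. At 10 h it had 4.48, 7.05 and 5.47 CPM in Col, against 24.7, 16.3 and 25.9 CPM in fls2. At 24 h it had 5.59, 6.75 and 9.76 CPM in Col, against 14.1, 16.3 and 23.9 CPM in fls2. No Col library reached the lowest fls2 library at any time. TPS5 fell by 2.07 ± 0.29 at 2 h (edgeR adjusted p = 1.6e-05), 4.20-fold lower in Col. It fell by 2.02 ± 0.26 at 10 h (edgeR adjusted p = 5.2e-06), and by 1.22 ± 0.28 at 24 h (edgeR adjusted p = 0.0048), when it was 2.32-fold lower. All 3 calls held under the 13 alternatives run for each. The test of whether the difference shrank between 2 and 24 h missed the threshold (0.85 ± 0.39, edgeR adjusted p = 0.19). The neighbour on the opposite strand at the TPS5 3′ end, AT4G17780, had 0 counts in every library.

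TPS11, a class II gene known as a sugar-repressed transcript, ran the other way. It had 22.8, 26.6 and 29.4 CPM in Col at 2 h, against 5.69, 7.27 and 5.30 CPM in fls2. At 10 h it had 45.3, 37.6 and 40.1 CPM in Col, against 3.84, 9.36 and 4.42 CPM in fls2. These groups lay far apart, the lowest Col library standing above the highest fls2 library at both times. TPS11 was higher in Col by 2.25 ± 0.38 at 2 h (edgeR adjusted p = 1.4e-04), 4.76-fold. At 10 h it was higher by 2.75 ± 0.26 (edgeR adjusted p = 1.4e-07), 6.71-fold. At 24 h it had 46.9, 23.4 and 17.7 CPM in Col and 18.4, 9.53 and 7.67 CPM in fls2, so Col library 3 lay under fls2 library 1. The difference of 1.42 ± 0.37 passed (edgeR adjusted p = 0.011). Library 1 was the highest in both genotypes, and without Col library 1 the call was lost (0.82, edgeR adjusted p = 0.11). It was also lost without fls2 library 2 (edgeR adjusted p = 0.059), without fls2 library 3 (edgeR adjusted p = 0.057) and with only the compared groups fitted (edgeR adjusted p = 0.1).

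TPS8 and TPS9, class II genes of the same sugar-repressed kind, passed beside TPS11 at 10 and 24 h. In 1 fit of all flg22 libraries, the test of a change in their difference from 2 to 10 h missed the threshold. TPS8 gave 0.80 ± 0.61 (edgeR adjusted p = 0.43) and TPS9 0.88 ± 0.57 (edgeR adjusted p = 0.35). TPS8 had 9.65, 12.1 and 19.4 CPM in Col at 2 h, overlapping 6.38, 11 and 8.91 CPM in fls2 (log2 interval -0.18 to 1.75, edgeR adjusted p = 0.23). At 10 h TPS8 had 21.6, 18.6 and 17.1 CPM in Col, against 7.58, 6.81 and 5.0 CPM in fls2. The Col libraries were all above the fls2 libraries, by 1.51 ± 0.20 (edgeR adjusted p = 5.4e-06), 2.85-fold. At 24 h TPS8 had 40.8, 16.4 and 13.7 CPM in Col and 14.1, 5.31 and 5.49 CPM in fls2, with Col library 3 just below fls2 library 1. It passed there (1.63 ± 0.49, edgeR adjusted p = 0.025) and was lost without Col library 1 (0.89, edgeR adjusted p = 0.24), without fls2 library 2 (edgeR adjusted p = 0.12), without fls2 library 3 (edgeR adjusted p = 0.1) and with only the compared groups fitted (edgeR adjusted p = 0.11).

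TPS9 had 5.89, 4.82 and 4.74 CPM in Col at 2 h and 2.44, 4.87 and 3.78 CPM in fls2, with 1 fls2 library inside the Col range (log2 interval -0.25 to 1.47, edgeR adjusted p = 0.29). At 10 h it had 5.07, 7.35 and 7.76 CPM in Col, against 2.12, 2.95 and 2.21 CPM in fls2. The groups did not overlap, and TPS9 was higher in Col by 1.42 ± 0.30 (edgeR adjusted p = 7.8e-04). At 24 h it had 18.8, 11.7 and 7.97 CPM in Col and 9.36, 5.02 and 2.70 CPM in fls2, overlapping at 1 library of each group. That difference of 1.28 ± 0.42 (edgeR adjusted p = 0.039) was lost without Col library 1 (0.82, edgeR adjusted p = 0.25) or library 2 (edgeR adjusted p = 0.065), without fls2 library 2 (edgeR adjusted p = 0.13) or library 3 (edgeR adjusted p = 0.15), and with only the compared groups fitted (edgeR adjusted p = 0.15).

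TPS10, known like TPS8 for repression by sugar, had 6.73, 12 and 13.6 CPM in Col at 2 h, against 5.98, 5.74 and 4.79 CPM in fls2. The groups did not overlap, and the difference missed the threshold (1.12 ± 0.46, edgeR adjusted p = 0.067). It passed without Col library 1 (1.36, edgeR adjusted p = 0.047), with only the compared groups fitted (1.12, edgeR adjusted p = 0.0071), with no filter on low counts (edgeR adjusted p = 0.048) and with DESeq2 (adjusted p = 0.04). At 10 h it had 19.7, 12.1 and 17.3 CPM in Col, against 8.59, 4.37 and 8.75 CPM in fls2, a separation of 2.2-fold (edgeR adjusted p = 0.0015). At 24 h the Col libraries, at 28.5, 20.6 and 9.65 CPM, and the fls2 libraries, at 21.0, 18.8 and 4.46 CPM, spread over the same range (log2 interval -0.36 to 1.40, edgeR adjusted p = 0.46).

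TPS6 had 3.38 to 11.3 CPM in the Col libraries and 2.22 to 8.36 CPM in the fls2 libraries, and passed at none of the 3 times (edgeR adjusted p = 0.75, 0.17 and 0.34 at 2, 10 and 24 h). Its Col libraries lay below all fls2 libraries at 2 h and above them all at 10 h, by differences of -0.14 ± 0.30 and 0.58 ± 0.34. Its neighbour AT1G68030 covers its 3′ end on the opposite strand and averaged at most 1.34 CPM in any group. TPS7 had 130 to 197 CPM in the Col libraries and 117 to 179 CPM in the fls2 libraries, and its log2 differences were 0.25 ± 0.16, -0.03 ± 0.16 and 0.25 ± 0.16 at 2, 10 and 24 h. The intervals for TPS7 reached from -0.35 to 0.57 over the 3 times.

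**Figure D2:**
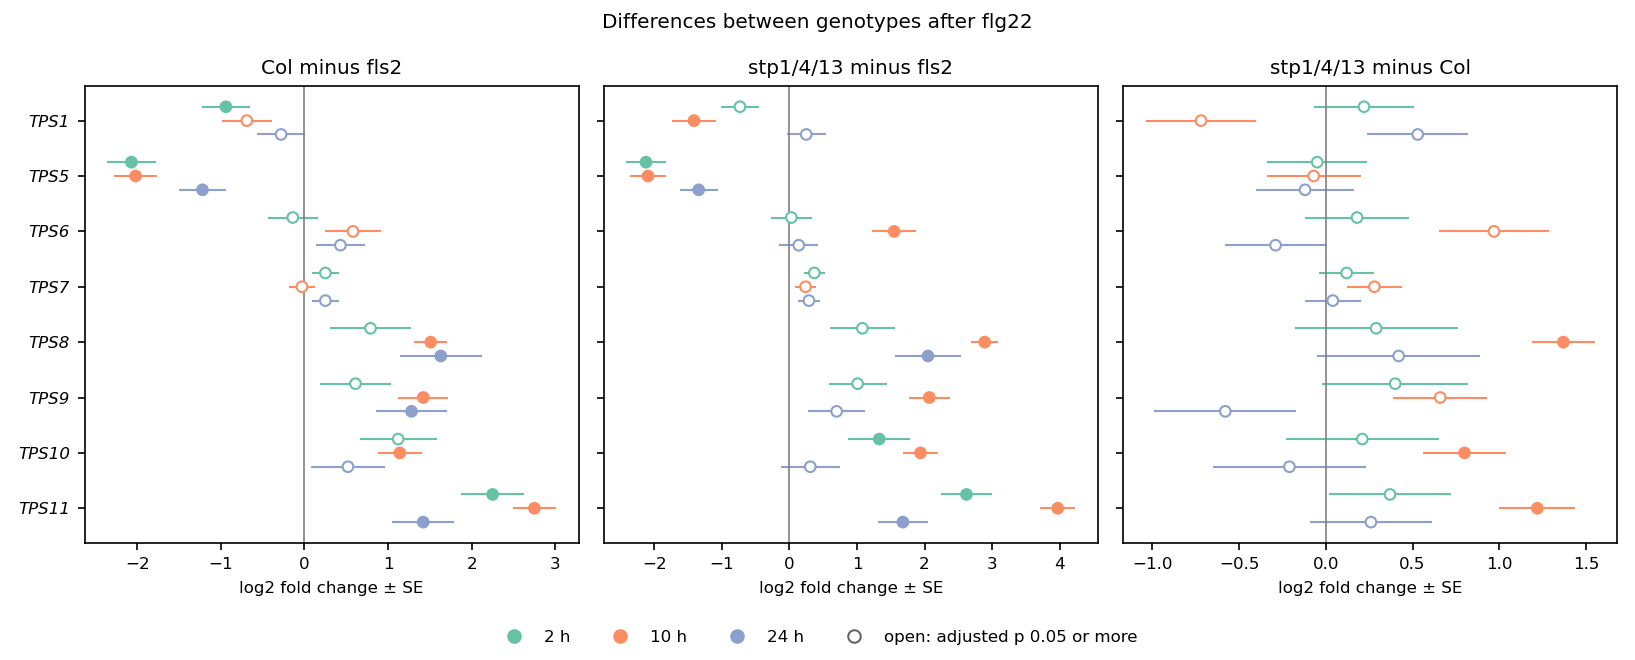
Log2 fold changes of the 8 TPS genes after flg22 with standard errors, for Col minus fls2, stp1/4/13 minus fls2 and stp1/4/13 minus Col, coloured by time; filled points have an edgeR adjusted p below 0.05. TPS5 lies left of 0 in both comparisons with fls2 at each time, TPS11 right of 0, and in stp1/4/13 minus Col only 10 h points of TPS8, TPS10 and TPS11 are filled.

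Against Col, stp1/4/13 had more TPS8, TPS10 and TPS11 at 10 h, 3 members higher and 0 lower of 8, beside a background of 12.5% of all genes (7.67% higher, 4.84% lower). The members' median log2 difference was 0.73, and that of all genes -0.00. TPS8 had 46.6, 43.5 and 50.1 CPM in stp1/4/13, against 21.6, 18.6 and 17.1 CPM in Col. TPS11 had 88.6, 79.4 and 103 CPM in stp1/4/13, against 45.3, 37.6 and 40.1 CPM in Col. In both genes each mutant library stood well above each Col library. TPS8 was 2.59-fold higher (1.37 ± 0.18, edgeR adjusted p = 1.2e-04) and TPS11 2.33-fold higher (1.22 ± 0.22, edgeR adjusted p = 0.002), and both calls held under all 13 alternatives.

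TPS10 had 34.0, 25.0 and 21.9 CPM in stp1/4/13, against 19.7, 12.1 and 17.3 CPM in Col. The groups were separate, but the call (0.80 ± 0.24, edgeR adjusted p = 0.04) was lost with RLE scaling (edgeR adjusted p = 0.053), with library totals as scale (edgeR adjusted p = 0.068) and on leaving out any of 5 of the 6 libraries, at the most extreme without stp1/4/13 library 1 (0.62, edgeR adjusted p = 0.19). TPS6 had 10.1, 6.09 and 7.29 CPM in stp1/4/13 and 3.48, 5.76 and 3.38 CPM in Col, without overlap, and missed the threshold (0.97 ± 0.32, edgeR adjusted p = 0.058), passing without Col library 2 (1.26, edgeR adjusted p = 0.043). TPS9 had 10.3, 11.3 and 8.35 CPM in stp1/4/13 and 5.07, 7.35 and 7.76 CPM in Col (0.66 ± 0.27, edgeR adjusted p = 0.13).

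TPS1 and TPS5 passed in neither direction. TPS1 had 2.65, 2.09 and 3.70 CPM in stp1/4/13 at 10 h and 5.37, 5.36 and 3.98 CPM in Col, each mutant library below each Col library, with a difference that missed the threshold (-0.72 ± 0.32, edgeR adjusted p = 0.16). TPS5 had 5.57, 3.52 and 6.24 CPM in stp1/4/13, within reach of the Col libraries (log2 interval -0.62 to 0.48, edgeR adjusted p = 0.91). For TPS7 the interval at 10 h was -0.04 to 0.59.

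At 2 h and 24 h, edgeR called 0 of 8 members between stp1/4/13 and Col. The background at 2 h was 0.219% of all genes (0.172% higher, 0.0466% lower) and at 24 h 9.01% (4.46% higher, 4.55% lower), 0 members had an unadjusted p below 0.05 at either time, and DESeq2 called 0 at both. TPS11 at 2 h had 34.3, 36.2 and 34.5 CPM in stp1/4/13, all above the 22.8, 26.6 and 29.4 CPM in Col (log2 interval -0.34 to 1.08). At 24 h, TPS11 had 24.3, 43.9 and 42.8 CPM in stp1/4/13 and 46.9, 23.4 and 17.7 CPM in Col, and TPS8 had 19.0, 26.9 and 55.0 CPM in stp1/4/13 and 40.8, 16.4 and 13.7 CPM in Col. Both genes overlapped widely between the genotypes. With all 27 flg22 libraries in 1 fit, the test of whether the difference at 10 h departed from that at another time called 0 of 8 members against 2 h (background 0.0230% of all genes, 0.00922% higher and 0.0138% lower, 1 member with an unadjusted p below 0.05) and 0 of 8 against 24 h (background 0.728%, 0.461% higher and 0.267% lower, 3 members with an unadjusted p below 0.05). The calls at 10 h are thus not shown to differ from the other times: the change for TPS11 was 0.88 ± 0.48 against 2 h (edgeR adjusted p = 0.65) and 0.98 ± 0.48 against 24 h (edgeR adjusted p = 0.31). Between 24 h and 2 h, the test of a change in the difference called 0 of 8 members (background 0.0280% of all genes, 0.0186% higher and 0.00932% lower, 0 with an unadjusted p below 0.05, 0 by DESeq2).

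Against fls2, which shares the sucrose medium and the peptide but lacks the receptor, 5 members were higher and 2 were lower of 8 in stp1/4/13 at 10 h, beside a background of 52.2% of all genes (26.9% higher, 25.3% lower), with a members' median of 1.74 and -0.01 for all genes. TPS11 was 15.7-fold higher (3.97 ± 0.26, edgeR adjusted p = 1.9e-09) and TPS8 7.39-fold higher (2.89 ± 0.20, edgeR adjusted p = 2.4e-09). TPS9 was higher by 2.07 ± 0.30, TPS10 by 1.94 ± 0.26 and TPS6, which had not passed in Col, by 1.55 ± 0.33 (edgeR adjusted p = 8.6e-04). TPS6 stood at 10.1, 6.09 and 7.29 CPM in stp1/4/13, against 2.22, 2.95 and 2.98 CPM in fls2. TPS1 was 2.65-fold lower in stp1/4/13 (edgeR adjusted p = 0.0012) and TPS5 4.25-fold lower (edgeR adjusted p = 3.4e-06). RHM1, the antisense neighbour of TPS1, was lower in the same comparison (-1.29 ± 0.18). TPS7 missed the threshold there (0.24 ± 0.16, edgeR adjusted p = 0.22) and passed without fls2 library 1 (0.40, edgeR adjusted p = 0.042).

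At 2 h, TPS10 and TPS11 were higher and TPS5 was lower in stp1/4/13 than in fls2, 3 of 8 against a background of 25.6% (15.8% higher, 9.82% lower). TPS5 had 4.60, 4.65 and 5.74 CPM in stp1/4/13 there, against 26.9, 21.5 and 21.9 CPM in fls2. TPS10 had 9.94, 14.9 and 13.9 CPM in stp1/4/13, against 5.98, 5.74 and 4.79 CPM in fls2, and its call (1.33 ± 0.46, edgeR adjusted p = 0.041) was lost on leaving out any 1 of the 6 libraries (edgeR adjusted p = 0.062 to 0.13). TPS1, at 3.69, 5.10 and 6.69 CPM in stp1/4/13 and 9.29, 9.79 and 8.23 CPM in fls2, missed the threshold (-0.73 ± 0.28, edgeR adjusted p = 0.068). TPS7, at 0.37 ± 0.16, passed without fls2 library 2 (0.52, edgeR adjusted p = 0.033). With only the compared groups fitted, the 2 h count was 6 members, adding TPS1, TPS8 and TPS9. At 24 h, TPS8 and TPS11 were higher and TPS5 was lower, 3 of 8 against 19.9% (11.5% higher, 8.39% lower). TPS8 was 4.15-fold higher (2.05 ± 0.49, edgeR adjusted p = 0.006) and TPS11 3.21-fold higher (1.68 ± 0.37, edgeR adjusted p = 0.0031). In the fit of all 27 flg22 libraries, the difference between stp1/4/13 and fls2 was greater at 10 h than at 2 h for TPS6, TPS8 and TPS11, 3 of 8 beside 20.1% of all genes (10.1% higher, 10.0% lower). Against 24 h it was greater at 10 h for TPS6, TPS10 and TPS11 and lower for TPS1, 4 of 8 beside 23.4% (12.3% higher, 11.1% lower). TPS11 changed by 1.45 ± 0.51 against 2 h (edgeR adjusted p = 0.047) and by 2.38 ± 0.51 against 24 h (edgeR adjusted p = 0.0016). For Col minus fls2 the same test called 0 of 8 members against 2 h (background 12.7%, 6.32% higher and 6.35% lower, 0 with an unadjusted p below 0.05) and 0 of 8 against 24 h (background 8.92%, 5.04% higher and 3.88% lower, 1 with an unadjusted p below 0.05).

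Tissue markers also differed in these comparisons. At 2 h all 5 shoot markers, genes of light harvesting, Rubisco and plastocyanin, were lower in Col than in fls2, with a summed 3790 to 6530 CPM in Col and 12100 to 15000 CPM in fls2. Of all genes, 16.1% were lower there. At 10 h 2 of the 5 shoot markers were lower in Col, beside 26.4% of all genes. The sum of the 5 was 11500 to 14800 CPM in stp1/4/13, 5500 to 8060 CPM in Col and 10700 to 14700 CPM in fls2. Of 6 root hair and root epidermis markers, 5 were lower in Col than in fls2 at 10 h and at 24 h, beside 26.4% and 7.59% of all genes. The sum of the 6 at 10 h was 5.39 to 26.3 CPM in stp1/4/13, 10.1 to 16.3 CPM in Col and 166 to 265 CPM in fls2. COBL9, a root hair gene, had 0 counts in all 3 stp1/4/13 libraries of 10 h and averaged only 0.431 CPM in Col and 7.73 CPM in fls2. Between stp1/4/13 and Col at 10 h, edgeR called 1 of the 6 root markers higher and 1 lower. The shares of all genes were 7.67% and 4.84%, and DESeq2 called 0 root markers higher and 2 lower. In stp1/4/13, 2 of the 5 shoot markers were higher than in Col at 10 h and 4 at 24 h, beside 7.67% and 4.46% of all genes. The part of tissue make-up in the TPS differences was not tested.

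In Col seedlings without flg22, TPS11 was higher in the libraries titled 2DG_1mM and lower in those titled Suc_25mM than in Suc_0mM. Libraries titled 2DG_1mM had the highest TPS9 and TPS11 and almost no TPS5. Libraries titled Suc_25mM had the lowest TPS8 of all groups. Between 2DG_1mM and Suc_0mM, 2 members were higher and 1 was lower of 8, beside 49.2% of all genes (21.3% higher, 27.9% lower), with medians of 0.29 for the members and -0.21 for all genes. Between Suc_25mM and Suc_0mM, 0 were higher and 2 were lower, beside 12.5% (6.41% higher, 6.08% lower), with medians of -0.81 and 0.04. There 5 members had an unadjusted p below 0.05, and DESeq2 called 1 higher and 4 lower. Between 2DG_1mM and Suc_25mM, 3 were higher and 1 was lower, beside 49.3% (21.4% higher, 28.0% lower).

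**Figure D3:**
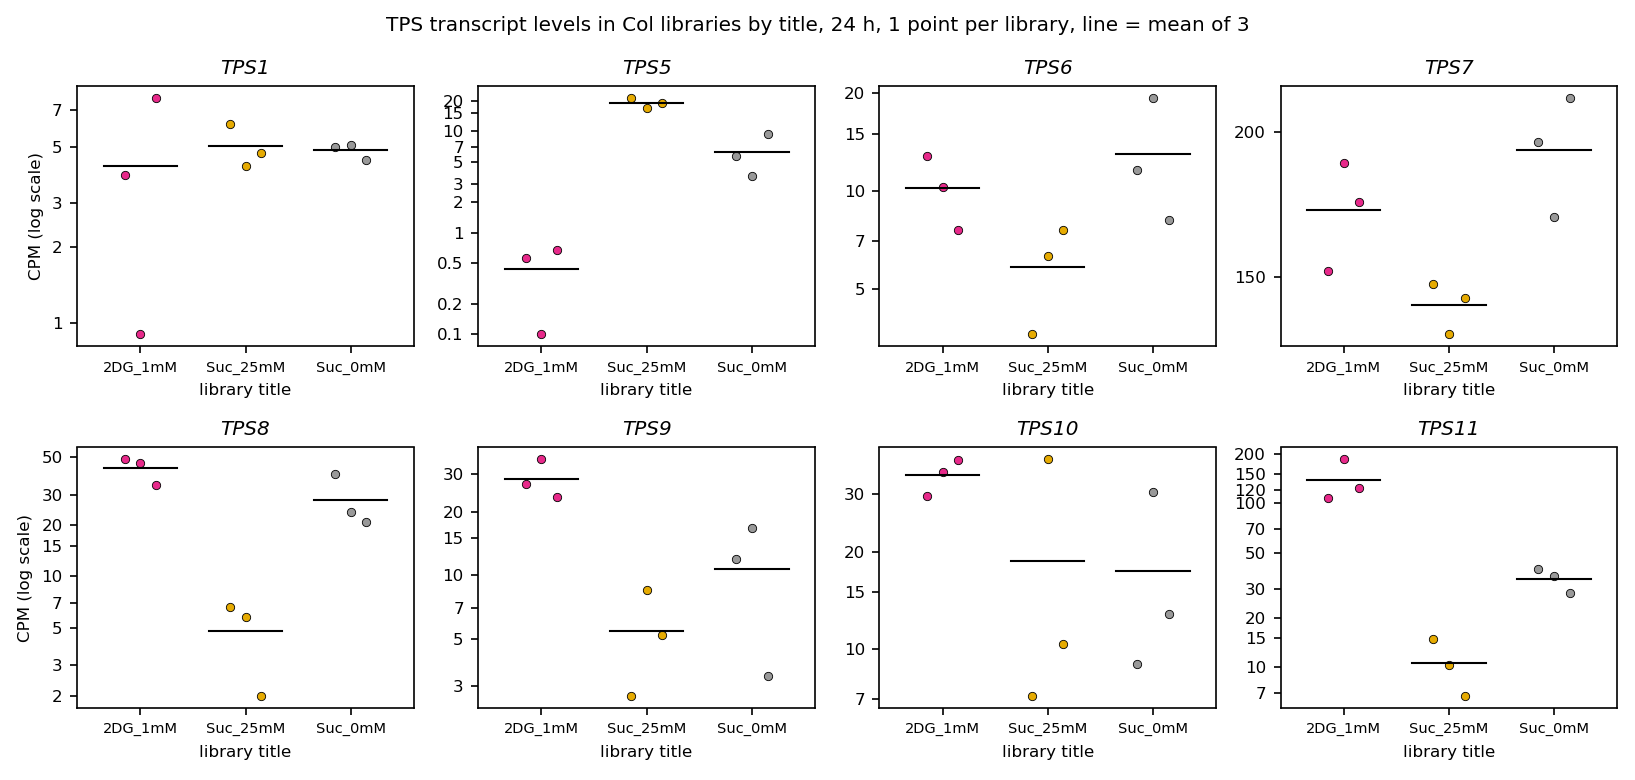
CPM on a log scale of the 8 TPS genes in the Col libraries taken at 24 h, by library title; points are libraries and bars the mean of 3. TPS5 lies at 0.0999 to 0.671 CPM under the title 2DG_1mM and at 16.9 to 21.4 CPM under Suc_25mM, and TPS11 lies the other way round, at 108 to 185 CPM and 6.70 to 14.9 CPM.

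TPS5 was all but missing from the libraries titled 2DG_1mM, with 0.563, 0.0999 and 0.671 CPM, or 6, 1 and 6 counts, against 5.66, 3.63 and 9.39 CPM in Suc_0mM. It fell by 3.75 ± 0.61 (edgeR adjusted p = 4.0e-04), 13.4-fold lower. The libraries titled Suc_25mM had 21.4, 16.9 and 18.9 CPM, all above the Suc_0mM libraries, yet the difference missed the threshold (1.47 ± 0.49, edgeR adjusted p = 0.078). It passed with DESeq2 (adjusted p = 0.021) and with only the compared groups fitted (edgeR adjusted p = 0.028). The Suc_25mM libraries and the fls2 libraries of the flg22 experiment held the highest TPS5 levels of the series. All flg22 groups stood in 25 mM sucrose, and there Col and stp1/4/13 had TPS5 means of 4.99 to 7.37 CPM. Levels were not tested between the flg22 libraries and the sucrose libraries, and the cause of this difference was not tested.

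TPS11 had 108, 185 and 123 CPM in 2DG_1mM, 14.9, 10.4 and 6.70 CPM in Suc_25mM, and 39.9, 35.8 and 28.2 CPM in Suc_0mM. The 3 groups were fully separate. TPS11 was 4.21-fold higher in 2DG_1mM than in Suc_0mM (2.07 ± 0.31, edgeR adjusted p = 2.4e-04), 3.48-fold lower in Suc_25mM than in Suc_0mM (-1.80 ± 0.32, edgeR adjusted p = 0.0039), and 14.7-fold higher in 2DG_1mM than in Suc_25mM (edgeR adjusted p = 8.1e-06).

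TPS8 had 48.3, 46.2 and 34.0 CPM in 2DG_1mM, 6.61, 5.75 and 1.99 CPM in Suc_25mM, and 39.4, 23.8 and 20.7 CPM in Suc_0mM. The sucrose libraries stood apart below the rest, while 2DG_1mM and Suc_0mM overlapped. It was 6.17-fold lower in Suc_25mM than in Suc_0mM (-2.62 ± 0.41, edgeR adjusted p = 0.0023), and the difference of 2DG_1mM from Suc_0mM had an interval of -0.06 to 1.46 (edgeR adjusted p = 0.15).

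TPS9 had 27.1, 35.3 and 23.5 CPM in 2DG_1mM, 2.70, 8.57 and 5.21 CPM in Suc_25mM, and 12, 16.8 and 3.34 CPM in Suc_0mM. The 2DG_1mM libraries lay above all others, and the other two groups overlapped. TPS9 was higher in 2DG_1mM than in Suc_0mM by 1.5 ± 0.54 (edgeR adjusted p = 0.036), a call lost without 2DG_1mM library 1 (edgeR adjusted p = 0.061) or 2 (edgeR adjusted p = 0.081) and without Suc_0mM library 1 (edgeR adjusted p = 0.07) or 3 (edgeR adjusted p = 0.089). Against Suc_25mM it was 5.85-fold higher (edgeR adjusted p = 0.003). For Suc_25mM against Suc_0mM the interval was -2.13 to 0.05.

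TPS10 had 29.6, 35.2 and 38.3 CPM in 2DG_1mM, 7.17, 38.5 and 10.4 CPM in Suc_25mM, and 9.02, 30.5 and 12.8 CPM in Suc_0mM. Library 2 was high in both sucrose groups and reached the 2DG_1mM level. Between 2DG_1mM and Suc_0mM the difference of 1.03 ± 0.61 missed the threshold (edgeR adjusted p = 0.18). Between 2DG_1mM and Suc_25mM it was also 1.03 ± 0.61 (edgeR adjusted p = 0.18), and passed without Suc_25mM library 2 (2.17, edgeR adjusted p = 0.0073).

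The 3 remaining members passed in none of these comparisons. TPS6 had 12.8, 10.3 and 7.60 CPM in 2DG_1mM, 3.63, 6.33 and 7.57 CPM in Suc_25mM, and 11.6, 19.3 and 8.15 CPM in Suc_0mM, with the Suc_25mM libraries below all others (against Suc_0mM -1.27 ± 0.43, edgeR adjusted p = 0.08, and DESeq2 adjusted p = 0.035). TPS7 had 152, 188 and 174 CPM in 2DG_1mM, 148, 134 and 144 CPM in Suc_25mM, and 196, 169 and 214 CPM in Suc_0mM, again lowest in Suc_25mM (against Suc_0mM -0.57 ± 0.19, edgeR adjusted p = 0.078, and DESeq2 adjusted p = 0.025). TPS1 had 3.85, 0.899 and 7.83 CPM in 2DG_1mM, 6.14, 4.19 and 4.72 CPM in Suc_25mM, and 5.0, 5.09 and 4.42 CPM in Suc_0mM. The 2DG_1mM libraries spread widest for TPS1, and their interval against Suc_0mM was -1.42 to 1.11. AT1G09827, which overlaps TPS1 on the opposite strand away from its 3′ end, had 0.300 to 1.57 CPM in 2DG_1mM and 0.0864 to 0.328 CPM in Suc_0mM.

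The shoot markers summed to 4640 to 9550 CPM in 2DG_1mM, 8520 to 13700 CPM in Suc_25mM and 20900 to 30000 CPM in Suc_0mM. Against Suc_0mM, 5 of 5 were lower in 2DG_1mM and 4 of 5 in Suc_25mM, beside 27.9% and 6.08% of all genes. The root markers summed to 11.6 to 19.7 CPM in 2DG_1mM, 58.7 to 106 CPM in Suc_25mM and 37.3 to 70.8 CPM in Suc_0mM. In 2DG_1mM, 4 of 6 were lower and 1 was higher than in Suc_0mM, beside 27.9% lower and 21.3% higher of all genes. FLS2 had 2.26 CPM in 2DG_1mM, 27.1 CPM in Suc_25mM and 29.3 CPM in Suc_0mM on average. The part of these shifts in the TPS differences was not tested.

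Between 24 h and 2 h in Col, TPS6 and TPS9 were higher at 24 h, 2 of 8, near the background of 32.7% of all genes (17.1% higher, 15.7% lower). TPS6 had 8.95, 11.3 and 5.01 CPM in Col at 24 h and 3.48, 3.78 and 4.13 CPM at 2 h (1.07 ± 0.30, edgeR adjusted p = 0.011), without overlap. Its call was lost without the 24 h library 2 (0.77, edgeR adjusted p = 0.089). TPS9 had 18.8, 11.7 and 7.97 CPM at 24 h, all above its 2 h libraries (1.26 ± 0.42, edgeR adjusted p = 0.027), and was lost on leaving out 5 of the 6 libraries in turn, to 0.79 without the 24 h library 1 (edgeR adjusted p = 0.19). In stp1/4/13, edgeR called 0 members (background 27.4% of all genes, 14.0% higher and 13.3% lower, 0 with an unadjusted p below 0.05, 0 by DESeq2).

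In fls2, TPS10 was higher at 24 h, 1 of 8 beside 19.8% (11.9% higher, 7.93% lower), with 21.0, 18.8 and 4.46 CPM at 24 h and 5.98, 5.74 and 4.79 CPM at 2 h. The third 24 h library lay below all 2 h libraries, and the call (1.40 ± 0.46, edgeR adjusted p = 0.04) was lost without the 24 h library 1 (1.04, edgeR adjusted p = 0.2) or 2 (1.17, edgeR adjusted p = 0.14), without any 1 of the 2 h libraries (edgeR adjusted p = 0.079 to 0.12) and with only the compared groups fitted (edgeR adjusted p = 0.079). TPS1 in fls2 had 4.50, 5.95 and 5.49 CPM at 24 h, all below 9.29, 9.79 and 8.23 CPM at 2 h, and missed the threshold (-0.80 ± 0.28, edgeR adjusted p = 0.053), while it passed with DESeq2 (adjusted p = 0.029). TPS11 in fls2 missed it too (0.94 ± 0.38, edgeR adjusted p = 0.085), and passed without the 24 h library 3 (1.18, edgeR adjusted p = 0.034). Between Col and fls2 the change from 2 h to 24 h differed for 0 of 8 members (background 10.5% of all genes, 4.50% higher and 6.04% lower, 1 with an unadjusted p below 0.05, 0 by DESeq2).

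The order of the 12 groups differed between members. It runs across both count tables, between which levels were not tested, so the orders and spans are descriptions only. TPS5 had its lowest mean in 2DG_1mM (0.445 CPM, from 1 to 6 counts per library) and its highest in fls2 at 2 h (23.5 CPM), a span of 52.8-fold. From 2DG_1mM upward the next 7 groups were Col and stp1/4/13 after flg22 and Suc_0mM, between 4.99 and 7.37 CPM, each overlapping its neighbour. The top 4, between 18.1 and 23.5 CPM, were fls2 at the 3 times and Suc_25mM, and they also overlapped one another. TPS11 ran close to the reverse, over 23.6-fold, with fls2 at 10 h (5.87 CPM), fls2 at 2 h (6.09 CPM), Suc_25mM (10.7 CPM) and fls2 at 24 h (11.9 CPM) at the low end. Its top groups were Col at 10 h (41.0 CPM), stp1/4/13 at 10 h (90.3 CPM) and 2DG_1mM (139 CPM), the last 2 each separate from the group beneath. TPS8 spanned 9.77-fold, from 4.78 CPM in Suc_25mM up to 46.7 CPM in stp1/4/13 at 10 h, and all 11 pairs of neighbours overlapped.

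TPS9 spanned 11.8-fold, and its highest group, 2DG_1mM at 28.6 CPM, was separate from Col at 24 h at 12.8 CPM. TPS10 spanned 6.24-fold between fls2 at 2 h (5.50 CPM) and 2DG_1mM (34.4 CPM). TPS6 spanned 4.79-fold, its lowest group, fls2 at 10 h with 2.72 CPM, being separate from the next. TPS1 spanned 3.23-fold between stp1/4/13 at 10 h (2.82 CPM) and fls2 at 2 h (9.10 CPM), and TPS7 1.36-fold between Suc_25mM (142 CPM) and Suc_0mM (193 CPM). In TPS1, TPS7 and TPS10 all 11 pairs of neighbours overlapped.

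**Figure D4:**
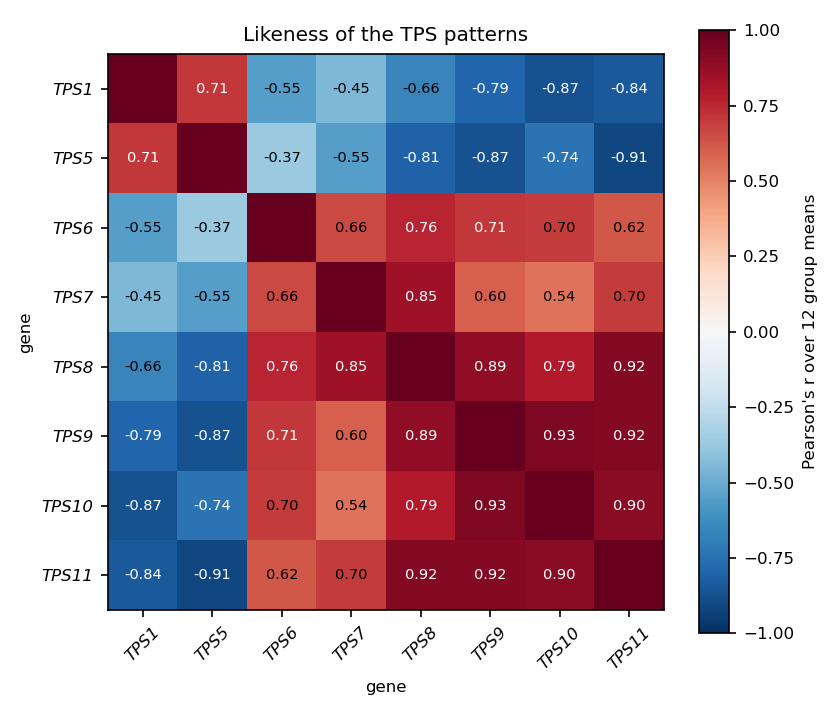
Pearson's r between the patterns of each pair of TPS genes over 12 group means of log2 CPM, centred within each of the 3 fits. TPS8 to TPS11 are alike (0.79 to 0.93), TPS7 is closest to TPS8 among the members (0.85), and TPS1 and TPS5 run against them (-0.66 to -0.91).

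Across the 12 group means, centred within each fit, TPS8, TPS9, TPS10 and TPS11 correlated with each other at 0.79 to 0.93, and TPS6 with these 4 at 0.62 to 0.76. TPS7 correlated with TPS8 at 0.85, with TPS11 at 0.70, with TPS9 at 0.60 and with TPS10 at 0.54. TPS1 and TPS5 correlated at 0.71 with each other and at -0.66 to -0.91 with TPS8 to TPS11, TPS5 against TPS11 giving -0.91. Centring within each fit ties its group means together, so the 12 points are not independent and these values are descriptions only. Among 5684 genes with a symbol and a mean log2 CPM of at least 3, the closest pattern to TPS5 was that of HB2, a plant haemoglobin gene, at 0.989, followed by AGP4, an arabinogalactan protein gene, at 0.981. The closest to TPS8 was bZIP1, a low-energy transcription factor gene, at 0.984, and to TPS9 ATG8E, an autophagy gene, at 0.986, and ACX2, an acyl-CoA oxidase gene, at 0.976. DIN2, a dark-inducible glucosidase gene, came closest to TPS10 at 0.970. SNC1, an immune receptor gene, came closest to TPS11 at 0.975, with HSPRO2 next at 0.973. SWEET2, a sugar transporter gene, came closest to TPS6 at 0.969 and BT5, a BTB-TAZ scaffold gene, to TPS7 at 0.942. For TPS1 the closest was dNK, a deoxynucleoside kinase gene, at 0.950.

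**Figure D5:**
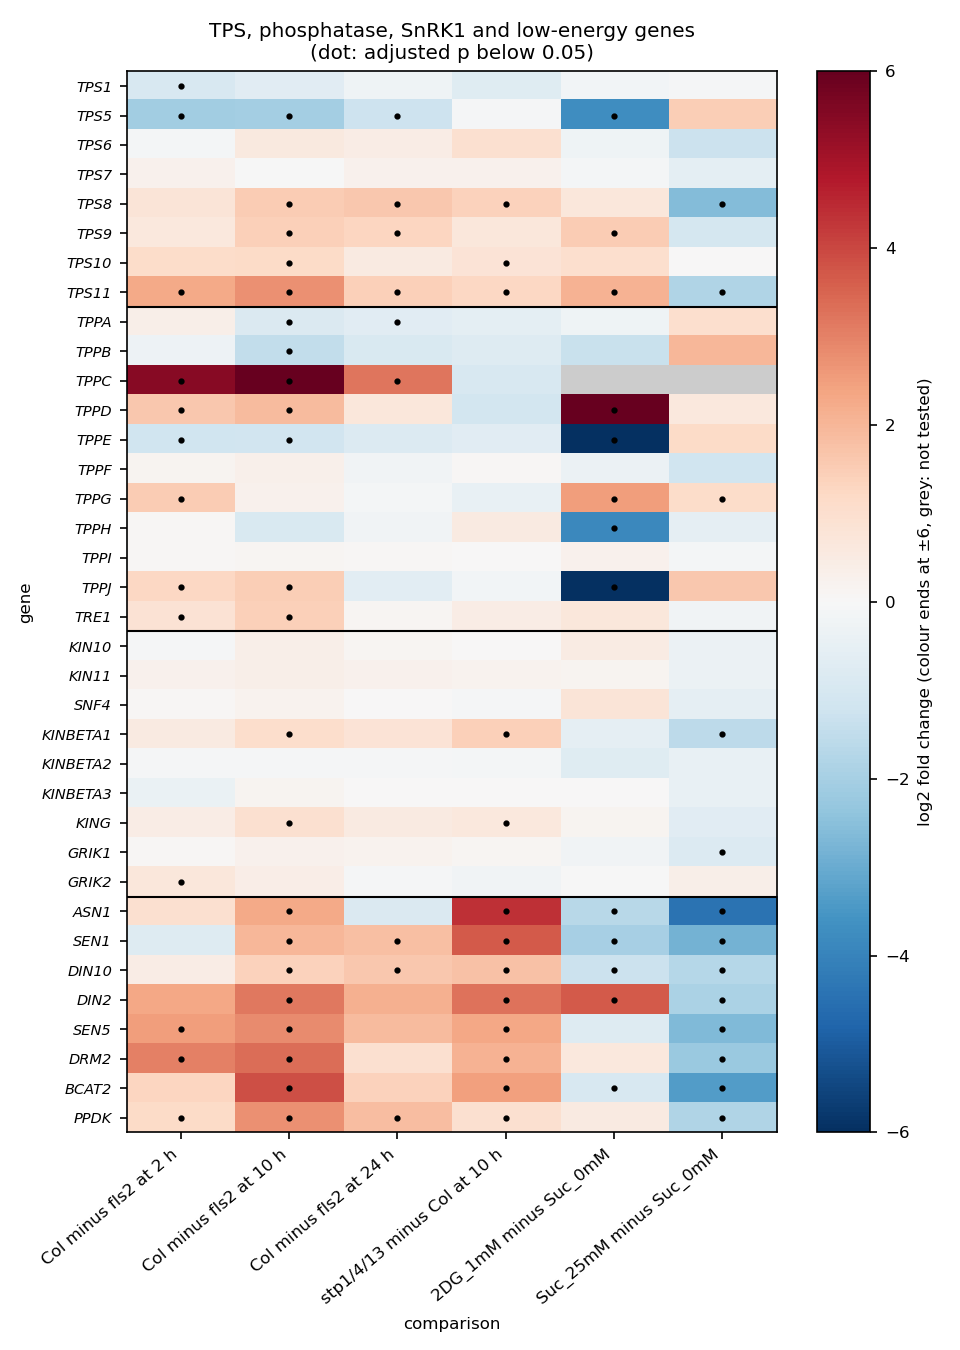
Log2 fold changes of the TPS genes, the TPP and trehalase genes, the SnRK1 genes and the low-energy genes in 6 comparisons; dots mark an edgeR adjusted p below 0.05, and grey marks genes not tested. Colours of TPPC, TPPE and TPPJ in comparisons with an empty group depend on the prior count. The low-energy genes are all dotted for Col minus fls2 and stp1/4/13 minus Col at 10 h and for Suc_25mM minus Suc_0mM.

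The phosphatases, which remove what TPS1 makes, did not move as a block. Of 10 TPP genes and TRE1, 5 were higher and 1 was lower in Col than in fls2 at 2 h, beside a background of 34.8% of all genes (18.7% higher, 16.1% lower), with a median log2 difference of 0.37. TPPG had 43.9 CPM in Col and 17.4 CPM in fls2 on average (1.51 ± 0.24, edgeR adjusted p = 7.6e-05). TPPD was higher by 1.61 ± 0.42 and TPPJ by 1.24 ± 0.30. TPPC had 0 counts in the 3 fls2 libraries of 2 h and of 10 h. With a floor of 3 counts over the fls2 group, its mean in Col stood 4.99-fold above that floor at 2 h (0.281 CPM) and 27.3-fold at 10 h (2.72 CPM). At 2 h the Col libraries held only 1 to 10 counts. The lowest of them, at 0.0524 CPM, lay under the floor of 0.0563 CPM, so the 2 h fold is no lower bound. At 10 h 4 were higher and 3 were lower, near the background of 51.3% (24.9% higher, 26.4% lower), with a median of 0.27. TPPD and TPPJ were higher (1.91 ± 0.71 and 1.49 ± 0.33), and TPPB was lower (-1.48 ± 0.30). At 24 h, TPPC was higher (3.20 ± 0.83) and TPPA was lower (-0.67 ± 0.20), with a median of -0.20. The background there was 18.6% of all genes (11.0% higher, 7.59% lower).

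Between stp1/4/13 and Col, edgeR called 0 of these 11 at each time (0, 1 and 0 with an unadjusted p below 0.05 at 2, 10 and 24 h, and 0 by DESeq2 each time). The backgrounds were 0.219%, 12.5% and 9.01% of all genes. Between 2DG_1mM and Suc_0mM, 2 were higher and 3 were lower of 10 tested, near the background of 49.2% of all genes (21.3% higher, 27.9% lower). TPPD had 76.0 CPM in 2DG_1mM, against 1.72 CPM in Suc_25mM and 1.02 CPM in Suc_0mM, and was higher than in Suc_0mM by 6.24 ± 0.44 (edgeR adjusted p = 2.2e-06). TPPH, at 0.112 CPM in 2DG_1mM and 1.70 CPM in Suc_0mM, was lower there (-3.86 ± 1.42, edgeR adjusted p = 0.04). TPPJ had 0 counts in 2DG_1mM and averaged 9.82 CPM in Suc_25mM and 2.86 CPM in Suc_0mM, at least 28.2-fold lower than in Suc_0mM against the same floor. TPPE likewise had 0 counts in 2DG_1mM and was at least 18.4-fold lower than in Suc_0mM. TPPG was the 1 gene of the list called between Suc_25mM and Suc_0mM (1.09 ± 0.27, edgeR adjusted p = 0.021), of 10 tested, beside a background of 12.5% of all genes.

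Of 9 genes for SnRK1 subunits and their activating kinases, 1 was higher in Col than in fls2 at 2 h, the kinase gene GRIK2 (0.67 ± 0.16), and edgeR called 0 at 24 h (1 with an unadjusted p below 0.05, 0 by DESeq2). The backgrounds were 34.8% of all genes (18.7% higher, 16.1% lower) at 2 h and 18.6% (11.0% higher, 7.59% lower) at 24 h. KINBETA1 and KING, the genes of a beta and a gamma-type subunit, were the 2 higher at 10 h (1.07 ± 0.18 and 0.96 ± 0.15), beside a background of 51.3% (24.9% higher, 26.4% lower). The same 2 were higher in stp1/4/13 than in Col at 10 h, beside 12.5% of all genes (7.67% higher, 4.84% lower). KINBETA1 averaged 61.9 CPM in stp1/4/13, 24.6 CPM in Col and 11.3 CPM in fls2 there (stp1/4/13 minus Col 1.42 ± 0.17, edgeR adjusted p = 4.4e-05). KINBETA1 and the kinase gene GRIK1 were lower in Suc_25mM than in Suc_0mM (-1.57 ± 0.29 and -0.81 ± 0.21), 2 of 9 beside 12.5% (6.41% higher, 6.08% lower). Between 2DG_1mM and Suc_25mM, 5 of the 9 were higher and 0 lower (median 0.60), beside 49.3% of all genes (21.4% higher, 28.0% lower). KIN10, the catalytic subunit gene, passed in 1 of the 17 comparisons, this same 2DG_1mM minus Suc_25mM (0.87 ± 0.26, edgeR adjusted p = 0.015).

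The 8 low-energy genes are known to rise when carbon is short. In Col against fls2, 3 were higher at 2 h (median 1.23), near the background of 34.8% of all genes (18.7% higher), and 3 at 24 h (median 1.72), beside 18.6% (11.0% higher), and none was lower at either time. At 10 h, 8 of 8 were higher in Col than in fls2 (median 2.77), beside 24.9% of all genes, and 8 of 8 higher in stp1/4/13 than in Col (median 2.40, and -0.00 for all genes), beside 7.67%. ASN1, an asparagine synthetase gene, had 151 CPM in stp1/4/13 and 7.69 CPM in Col at 10 h (4.38 ± 0.23, edgeR adjusted p = 1.8e-08). Between stp1/4/13 and Col, edgeR called 0 of the 8 at 2 h and at 24 h (0 with an unadjusted p below 0.05 and 0 by DESeq2 at both times), beside 0.219% and 9.01% of all genes. In Suc_25mM, 8 of 8 were lower than in Suc_0mM (median -2.42), beside 6.08% of all genes. In 2DG_1mM, 1 was higher and 4 were lower than in Suc_0mM, beside 49.2% of all genes (21.3% higher, 27.9% lower). DIN2 was the gene that was higher there (3.66 ± 0.46), with 436 CPM in 2DG_1mM and 36.4 CPM in Suc_0mM. ASN1 was lower there (-1.67 ± 0.29), with 104 CPM in 2DG_1mM and 349 CPM in Suc_0mM, while TPS11 was higher in the same libraries. Against Suc_25mM, 7 of the 8 low-energy genes were higher in 2DG_1mM and 0 lower (median 2.35), beside 49.3% of all genes (21.4% higher, 28.0% lower).

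Of 4 genes that supply the synthase with its substrates, the hexokinase gene HXK2 and the UDP-glucose pyrophosphorylase gene UGP1 were lower in Col than in fls2 at 10 h (-1.10 ± 0.19 and -1.37 ± 0.15). These 2 of 4 lie near the background of 51.3% of all genes (24.9% higher, 26.4% lower). UGP1 had 44.8 CPM in Col and 112 CPM in fls2. HXK2 was also lower at 2 h (-1.01 ± 0.25) and was higher in Suc_25mM than in Suc_0mM (1.45 ± 0.40, edgeR adjusted p = 0.035). UGP2 was lower in 2DG_1mM than in Suc_0mM (-2.08 ± 0.36), as was UGP1 (-0.88 ± 0.26), 2 of 4 beside 49.2% of all genes (21.3% higher, 27.9% lower).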

How the data were processed

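Per the submitters' processing notes, reads were handled with fastp 0.19.7, STAR 2.6.1b and featureCounts 1.6.0 on TAIR10. Per the labels' protocols, 500 ng of RNA went into each strand-specific 3′ library by BrAD-seq. The values deposited by the authors are whole-number counts per locus in 2 tables, 1 with the 2 h and 24 h libraries and 1 with the rest; whether counting used strand is not given in the sources used here. RefSeq's TAIR10.1 annotation (32548 of 32833 loci matched) gave names and overlaps only. No coordinates or sequences are printed, because the builds differ.

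Counts were tested in R 4.3.3 with edgeR 4.0.16 (TMM scaling, filterByExpr, quasi-likelihood test, two-sided), in 3 fits: 2 h with 24 h (18 libraries, 21463 genes), 10 h (9 libraries, 19561 genes) and sucrose with 2DG (9 libraries, 19727 genes). The scripts were tested on simulated counts. They gave 17 comparisons. A further fit of the 27 flg22 libraries of both tables (21700 genes, added after the data were seen) tested in 6 comparisons whether a difference between genotypes changed between 10 h and another time. Levels are CPM by library totals, and folds against a group at 0 counts use a floor of 3 counts over the group, which covers counting error only. Such folds take the mean of the other group as exact. Named beside the members were the 2 most alike genes each and up to 4 genes per list and comparison past the threshold, by absolute log2 fold change. The members and lists were chosen with earlier results of these data known. Lists held the other TPS genes, TPP and trehalase genes, SnRK1 genes, low-energy genes, substrate supply, FLS2 and STP genes, shoot and root markers and overlapping neighbours.

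Groups come from titles. The design text names 3 trials, without saying which replicate number is which, so the number as a block is an alternative only. The p-values measure the spread between these samples. Alternatives were RLE scaling, library totals (added after the data were seen), DESeq2 1.42.0, no filter, a strict filter (CPM of at least 1 in every library), only the compared groups, the replicate number as a block, groups from the treatment label and leaving out each library.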

Additional observations from a re-analysis of the deposited data

Results flagged for a closer look

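In 3 cases the same contrast ran in opposite directions at 2 times, with every same-numbered pair of libraries higher at one time and lower at the other. TPS1 in stp1/4/13 minus Col was 0.53 at 24 h and -0.72 at 10 h (log2), and neither passed the threshold. The test of that difference, in 1 fit of both tables, missed the threshold (-1.23 ± 0.41, 10 h minus 24 h, edgeR adjusted p = 0.13). TPS6 in Col minus fls2 was 0.58 at 10 h and -0.14 at 2 h, and the test of that difference in the same fit missed it too (0.80 ± 0.44, edgeR adjusted p = 0.26). TPS6 in Col minus fls2 was 0.43 at 24 h and -0.14 at 2 h, and the test of that difference missed the threshold (0.57 ± 0.42, edgeR adjusted p = 0.46). The causes were not tested.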

How the results depend on the processing

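Of 40 calls of a member, 22 held under every alternative run, 10 were lost under one other than the treatment label, and 8 changed with the treatment label alone, of which 6 still passed with the other sign and 2 no longer passed; of 96 member comparisons without a call, 18 gained one. Of 912 values from fits leaving out a library, 38 lost a call and 6 gained one. The same call counts again there for each library whose removal changed it. With groups from the treatment label, the libraries titled 2DG_1mM and Suc_25mM change places. Of 24 values, 12 then changed direction with a call under the title, the treatment label or both. Changes of direction without a call under either are not in this number. 2DG_1mM minus Suc_0mM then gave 1.47 for TPS5, -2.62 for TPS8, -1.04 for TPS9 and -1.80 for TPS11. Suc_25mM minus Suc_0mM gave -3.75 for TPS5, 0.70 for TPS8, 1.5 for TPS9 and 2.07 for TPS11. 2DG_1mM minus Suc_25mM gave 5.22 for TPS5, -3.32 for TPS8, -2.55 for TPS9 and -3.87 for TPS11. The number of members called moved by over 1.5 times in 5 comparisons. With only the compared groups fitted it was 6 for stp1/4/13 minus fls2 at 2 h (3 as reported) and 1 for Col minus fls2 at 24 h (4 as reported, and 1 to 4 on leaving out a library). For Suc_25mM minus Suc_0mM it was 5 with DESeq2 (2 as reported). For Col 24 h minus 2 h it was 0 to 2 on leaving out a library (2 as reported). For fls2 24 h minus 2 h it was 2 with DESeq2, RLE scaling, the strict filter and the replicate block, and 0 to 2 on leaving out a library (1 as reported). For same-numbered libraries, the departures of genes from their group mean had a median r of 0.199 (0.020 to 0.284) at 2 h. It was 0.023 (-0.071 to 0.069) at 10 h, 0.318 (0.047 to 0.597) at 24 h and 0.028 (-0.019 to 0.233) without flg22. Different numbers gave medians of -0.088, -0.004, -0.146 and -0.020 in that order. Same-numbered libraries thus tended to vary together at 2 h and 24 h, where every value was positive. At 10 h and without flg22 the range reached below 0. The main fits did not use the numbers as pairs, because the design text does not say which number is which trial. Fits leaving out a library did not use them either, so the losses at 24 h take no account of this shared variation. In Col minus fls2 at 24 h, libraries 1, 2 and 3 differed from their same-numbered partners by 1.35, 1.30 and 1.21 log2 units of CPM for TPS11. For TPS8 these differences were 1.53, 1.62 and 1.32, and for TPS9 1.01, 1.22 and 1.56. The replicate block gained 5 calls: TPS10 in Col minus fls2 at 2 h (1.19, edgeR adjusted p = 0.038), TPS1 in stp1/4/13 minus fls2 at 2 h (-0.74, 0.041), TPS10 in 2DG_1mM minus Suc_0mM (1.33, 0.023) and minus Suc_25mM (1.47, 0.017), and TPS1 in fls2 24 h minus 2 h (-0.81, 0.031). It changed no other call of a member, and TPS8, TPS9 and TPS11 in Col minus fls2 at 24 h passed with it (edgeR adjusted p = 0.026, 0.036 and 0.0088). The cause of these moves was not tested.

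Over all genes, calls for stp1/4/13 minus Col at 2 h numbered 47 as reported and 8 to 228 elsewhere, and at 24 h 1934 and 184 to 3740. At 10 h they numbered 2447, and 1307 to 1416 without Col library 1, Col library 3 or stp1/4/13 library 1. For Col minus fls2 at 24 h they numbered 3984, and 2090 with only the compared groups. For fls2 24 h minus 2 h they numbered 4245, and 750 to 2651 without 4 of the libraries in turn. For the change of stp1/4/13 minus Col with time they numbered 6, and 0 to 52 elsewhere. For Suc_25mM minus Suc_0mM they numbered 2463, and 1277 and 1507 without Suc_25mM library 1 or 3. The strict filter gave 6390 for 2DG_1mM minus Suc_0mM (9697 as reported) and 6376 for 2DG_1mM minus Suc_25mM (9731 as reported). It dropped TPS1 and TPS5 from the sucrose and 2DG fit, which leaves both without a value there. The treatment label exchanged 9697 and 2463. Scaling by library totals moved the median of all genes by over 0.1 in 4 comparisons, to -0.18 for Col minus fls2 at 2 h, -0.14 for stp1/4/13 minus fls2 at 2 h, 0.16 for Suc_25mM minus Suc_0mM and -0.41 for 2DG_1mM minus Suc_25mM. Depth limits TPS5 most, at 1 to 6 counts per 2DG_1mM library.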
